A study of Rattus norvegicus with 6 samples.

Results

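The 10 genes described here are markers of Kupffer cells, the resident macrophages of the liver, and of macrophages in general. They are Clec4f, Timd4, Vsig4, Cd5l, Marco, Adgre1, Cd68, Csf1r, C1qa and Lyz2. They were taken by symbol from the 32930 gene rows of the deposited expression table, where each has 1 row. Liver RNA was sequenced from 3 animals fed a high-fat diet with a carboxymethyl cellulose vehicle (HFD group). It was also sequenced from 3 animals that received HTG, the herbal Huazhuo Tiaozhi granule, on that diet (HTG group). The diet was therefore shared by both groups, and no normal-diet library was analysed here. The sample labels name rats, the paper's RNA sequencing methods name C57BL/6 J mice, whereas the table lists mouse Ensembl genes, which is how the values are given here. The treatment field of the HTG labels spells the agent HCG, and sex and age were not given for these 6 libraries. The labels give an intervention of 12 weeks, whereas the paper's rat design gave HTG only in the later part of 12 weeks of diet. The estimated counts, which are whole numbers per gene and library, summed to between 50648778 in HTG library 3 and 90563477 in HTG library 2. The source tissue was checked on 10 hepatocyte markers, of which Alb, the serum albumin gene, was the most abundant at 57854, 66091 and 74503 CPM in HFD libraries 1, 2 and 3 and 53506, 54429 and 55201 CPM in HTG libraries 1, 2 and 3. CPM are counts scaled to a common library total after TMM scaling between libraries.

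Kupffer cells line the hepatic sinusoids and clear particles, bacteria and dying cells from portal blood. Most arise from embryonic precursors and renew locally, and when they are lost, monocytes from the blood enter and gradually take on the same identity. The growth factor receptor encoded by Csf1r keeps macrophages alive in nearly every tissue. In fatty liver, resident cells can be replaced in part by recruited macrophages, which express Adgre1, Cd68 and Lyz2 before they express Clec4f and Timd4.

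All 10 markers were detected in all 6 libraries. The lowest value was 106 counts, of Timd4 in HFD library 2, against a limit of 12 counts for an empty gene, and all 10 passed the expression filter. FPKM values, which correct for transcript length, allow levels to be compared between genes. Lyz2, which encodes the secreted lysozyme of myeloid cells, had the highest mean at 188 FPKM over the 6 libraries. Cd5l, which encodes a secreted scavenger protein of tissue macrophages, followed with 169 FPKM, and it lay below Lyz2 in all 6 libraries although the means differed only 1.12-fold. C1qa (95.5 FPKM), Clec4f (73.7 FPKM), Marco (37.8 FPKM), Cd68 (31.3 FPKM), Vsig4 (29.8 FPKM), Csf1r (11.5 FPKM), Adgre1 (4.42 FPKM) and Timd4 (4.10 FPKM) came next. The order of C1qa and Clec4f held in 5 libraries. Those of Marco and Cd68, of Cd68 and Vsig4 and of Adgre1 and Timd4 held in 4. The differences within these pairs were not tested.

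**Figure D1:**
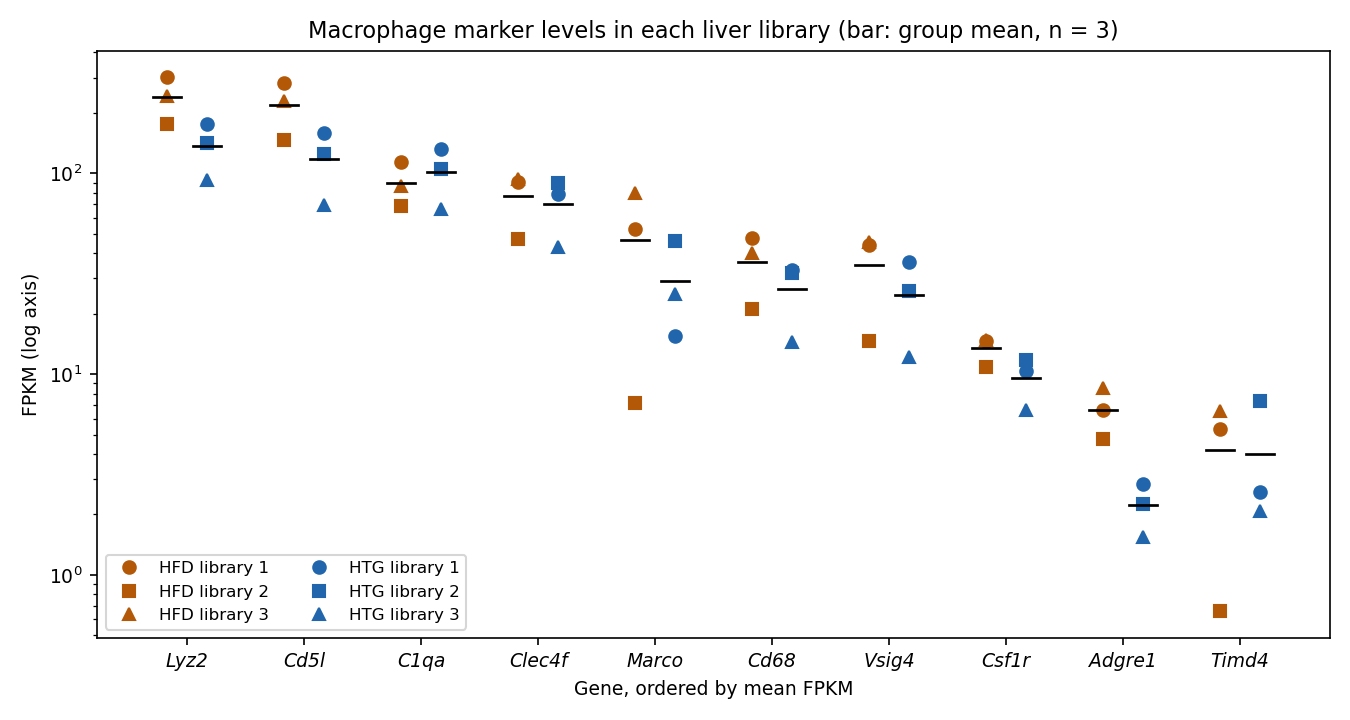
FPKM (log axis) of the 10 markers in each of the 6 libraries, with points for libraries and bars for group means (n = 3). Adgre1 is the gene whose HTG points all lie below its HFD points, and HFD library 2 is far below the other HFD libraries for Marco and Timd4.

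HTG library 3 had the lowest CPM of the 6 libraries in 7 of the 10 markers, and HFD library 2 had it in the other 3, Timd4, Marco and C1qa. HFD library 3 was highest in 5 markers and HFD library 1 in 3. The summed CPM of the 10 markers was 1649.6, 952 and 1517 across HFD libraries 1, 2 and 3, against 1167, 1017 and 656 across HTG libraries 1, 2 and 3. The groups overlapped, since HFD library 2 lay below HTG libraries 1 and 2. The mean was 1373 ± 370 in the HFD group and 947 ± 263 in the HTG group (SD, n = 3 per group), a log2 ratio of -0.54. In bulk liver RNA, fewer macrophages and less of these RNAs per macrophage cannot be told apart. HTG library 3 also had the fewest counts of the series, and its part in these values was not tested beyond leaving it out, which brought the log2 ratio to -0.33.

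**Figure D2:**
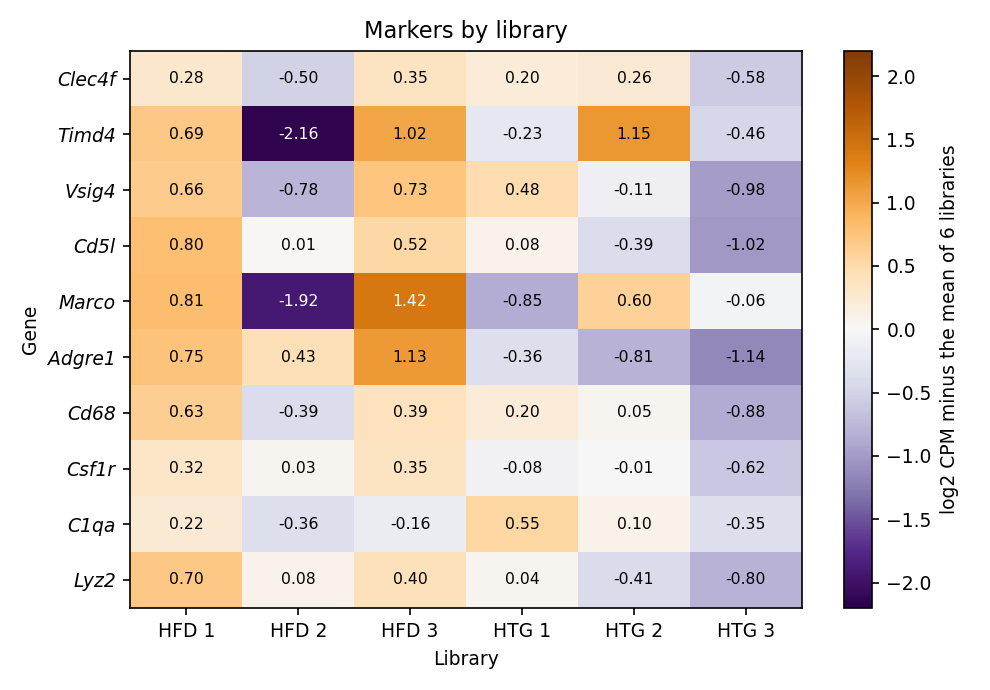
Log2 CPM of each marker (rows) in each library (columns) minus that marker's mean over the 6 libraries, with the value printed in each cell. HTG library 3 is below the mean for every marker, and HFD library 2 is lowest for Timd4 (-2.16) and Marco (-1.92).

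The comparison of the HTG group with the HFD group asks how HTG changed liver gene expression on a high-fat diet. No marker passed an adjusted p under 0.05 in edgeR's quasi-likelihood test, where 2 of the 18455 genes tested did, or 0.0108% (0.00542% lower). At an adjusted p under 0.1, 1 marker was lower, Adgre1, against 10.8% of all genes tested, 5.43% lower and 5.41% higher. At an unadjusted p under 0.05, 3 markers were lower and 0 were higher in the HTG group, against 24.7% of all genes tested, 12.4% lower. These 3 were Adgre1, Cd5l and Lyz2. The CPM of the groups did not overlap in 3 markers, Adgre1, Csf1r and Lyz2, all lower in the HTG group, against 32.1% of all genes tested, 15.5% lower. The fitted value was lower in 9 of the 10 markers, against 48.4% of all genes tested. Among these 9, Timd4 (-0.02) and Clec4f (-0.08) lay near 0, with the opposite sign in 10 and 3 of 17 alternative settings. The median log2 fold change of the markers was -0.44, against 0.03 over all genes tested. The 10 hepatocyte markers had a median of -0.47, with 7 fitted lower, so a median this low was not particular to the macrophage markers. The macrophage markers vary together between libraries, so their counts are not independent evidence. DESeq2 put the same 3 genes under an adjusted p of 0.05, where it called 10.5% of the genes it gave an adjusted p. The labels do not say how the animals were housed or processed, so the p-values measure only the spread between the 6 libraries.

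**Figure D3:**
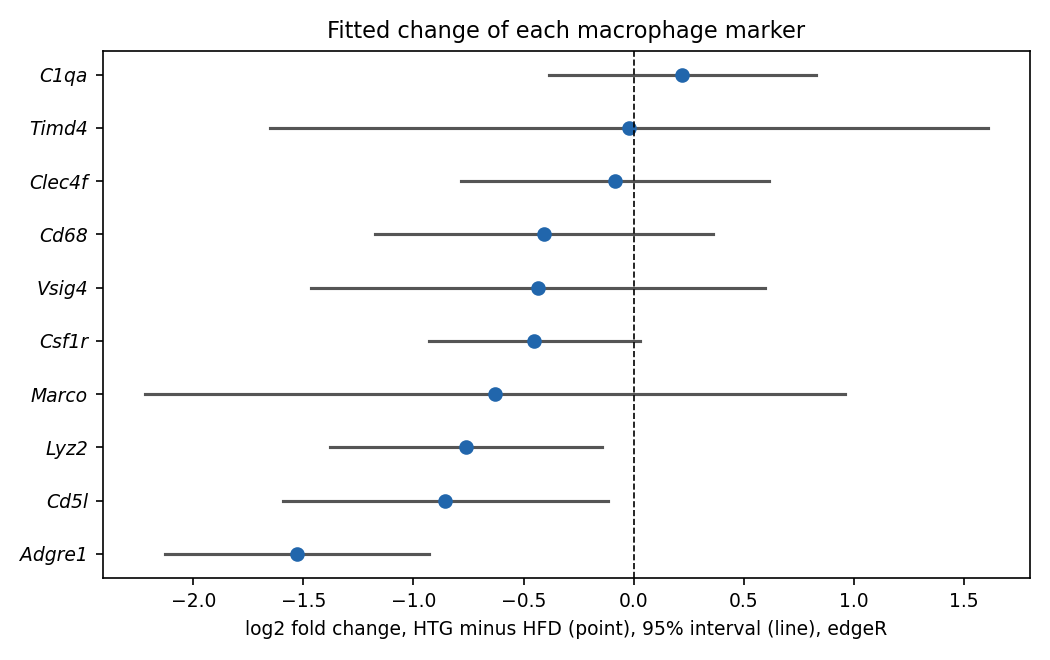
Log2 fold change of each marker, HTG minus HFD, from edgeR (points) with its 95% interval (lines), 3 libraries per group. The intervals of Adgre1, Cd5l and Lyz2 lie below 0, and those of Timd4 and Marco are the widest.

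Among the general macrophage genes, Adgre1 encodes the adhesion receptor detected by the F4/80 antibody (ENSMUSG00000004730, chromosome 17, 57665691 to 57790527; positions as deposited, with no build named). It had 21.3, 17.1 and 27.8 CPM in HFD libraries 1, 2 and 3 and 9.88, 7.26 and 5.76 CPM in HTG libraries 1, 2 and 3. Every HTG library lay below every HFD library, including HFD library 2, in which most markers were low. The mean was 2.88-fold lower with HTG, and the log2 fold change came to -1.53 (standard error 0.26, 95% interval -2.13 to -0.93, adjusted p = 0.0538 in edgeR's quasi-likelihood test). The adjusted p therefore missed 0.05 narrowly in this fit. In the same test without 1 library it ran from 0.041 (without HTG library 1) to 0.188 (without HTG library 2). Leaving out any library other than HTG library 1 gave 0.099 or more. With the replicate block the same test gave 0.143. The largest value, 0.204 in the same test, came without HFD library 2 and HTG library 3 together. Across 17 alternative settings the log2 fold change of Adgre1 lay between -1.80 and -1.24, and the adjusted p was under 0.05 in 7 of them. These were DESeq2, no filter (where 0.544% of genes passed), at least 10 counts in every library (4.43%), limma on log2(FPKM + 0.1) (8.03%) and on log2(FPKM + 1), counts divided by 4 (5.52%) and the fit without HTG library 1 (3.38%).

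Lyz2 (ENSMUSG00000069516, chromosome 10, 117113236 to 117118226) had 394, 257 and 320.3 CPM in the HFD libraries and 249.7, 183 and 139.7 CPM in the HTG libraries. The groups did not overlap, by a margin of 257 against 249.7. Its log2 fold change came to -0.76 (standard error 0.27, adjusted p = 0.133 in edgeR's quasi-likelihood test). Lyz1, the neighbouring and near-identical lysozyme gene with which reads could be shared, had at most 0.282 CPM in any library. With upper-quartile scaling or in FPKM the groups of Lyz2 overlapped.

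Csf1r, the receptor for the growth factors CSF1 and IL-34, had 84.4, 69.3 and 86.1 CPM in the HFD libraries and 64.1, 67.3 and 44.1 CPM in the HTG libraries. The margin between the groups was narrow, 69.3 against 67.3 CPM, and it too was lost with upper-quartile scaling or in FPKM. Csf1r varied least among the markers within the HFD group, with a coefficient of variation of 11.6%. Its log2 fold change came to -0.45 (standard error 0.21, adjusted p = 0.229 in edgeR's quasi-likelihood test). Without HTG library 3 the log2 fold change was -0.28. The Csf1r span overlaps Hmgxb3 on the opposite strand, and no source says if reads were counted by strand.

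Cd68, a lysosomal glycoprotein of phagocytes, had 59.5, 29.4 and 50.7 CPM in the HFD libraries and 44.3, 39.8 and 21.0 CPM in the HTG libraries. The groups overlapped, and the log2 fold change of -0.41 had a 95% interval from -1.18 to 0.36. It was -0.66 without HTG library 1 and -0.14 without HTG library 3. C1qa encodes the A chain of complement C1q, which tissue macrophages supply (ENSMUSG00000036887, chromosome 4, 136623228 to 136626114). It was the only marker with a higher fitted value in the HTG group. Its CPM was 118, 79.0 and 90.4 across the HFD libraries, against 148, 108 and 79.3 across the HTG libraries, so the groups overlapped. The log2 fold change was 0.22 (95% interval -0.39 to 0.83) and turned to -0.075 without HTG library 1.

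Among the markers largely restricted to resident Kupffer cells, Clec4f encodes a galactose-binding lectin found on Kupffer cells and on few other cells (ENSMUSG00000014542, chromosome 6, 83621524 to 83633169). It had 222, 129 and 232 CPM in the HFD libraries and 209.8, 218 and 122 CPM in the HTG libraries. Each group held 1 low library, HFD library 2 and HTG library 3, and the other 4 lay close together. The log2 fold change was -0.08, with a 95% interval from -0.78 to 0.62, so a change of 1 log2 unit in either direction lay outside the interval. Cd5l (ENSMUSG00000015854, chromosome 3, 87265188 to 87278380) had 572, 331 and 471 CPM in the HFD libraries and 346, 251 and 162 CPM in the HTG libraries. The groups overlapped only in that HTG library 1 lay above HFD library 2. Its log2 fold change came to -0.86 (standard error 0.32, adjusted p = 0.150 in edgeR's quasi-likelihood test).

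Timd4 encodes TIM-4, a receptor for phosphatidylserine on dying cells and a marker of long-resident Kupffer cells (ENSMUSG00000055546, chromosome 11, 46701627 to 46735159). It had 11.5, 1.59 and 14.4 CPM in the HFD libraries and 6.07, 15.8 and 5.17 CPM in the HTG libraries. The 3 HFD libraries spanned 9.06-fold, while the group means were 9.17 and 9.01 CPM. The log2 fold change was -0.02 with a 95% interval from -1.65 to 1.61, and its sign changed with the scaling, the unit and the library left out.

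Marco, a scavenger receptor that binds bacteria and particles (ENSMUSG00000026390, chromosome 1, 120402267 to 120432753), was also low in HFD library 2. It had 102, 15.3 and 155 CPM in the HFD libraries and 32.1, 87.9 and 55.7 CPM in the HTG libraries. HFD library 2 was thus the lowest of all and the other HFD libraries the highest, a 10.1-fold range within the group. The log2 fold change was -0.63 (95% interval -2.22 to 0.96). It was -1.14 without HFD library 2 and -0.0052 without HFD library 3. Vsig4, the complement receptor CRIg that captures opsonised bacteria, had 65.1, 24.0 and 68.2 CPM in the HFD libraries and 57.4, 38.2 and 20.8 CPM in the HTG libraries. Its log2 fold change was -0.43 (95% interval -1.47 to 0.60), and it was -0.87 without HTG library 1 and -0.13 without HTG library 3.

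Leaving out libraries moved the count of markers whose groups did not overlap. Without HFD library 2, the groups did not overlap in 8 markers, all lower in the HTG group and all but Timd4 and C1qa, against 41.2% of the genes tested in that fit, 20% lower. The number with an unadjusted p under 0.05 was then 5, against 20.3% of the genes tested. It was 1 without HFD library 1 and 1 without HTG library 3, against 22.3% and 17.9%. It was 2 without HFD library 3, 3 without HTG library 1 and 2 without HTG library 2, against 20.5%, 25.7% and 16.2%. A fit without HFD library 2 and HTG library 3 together was chosen after seeing the data. In it 8 markers did not overlap and were lower, against 51.9% of the genes tested, 25.5% lower. Without HTG library 3 alone, 2 markers did not overlap, against 39.8% (18.6% lower). With all 6 libraries, 1 marker, Adgre1, did not overlap with upper-quartile scaling, against 32.1% (14.5% lower), or in FPKM, against 38.3% (23.1% lower) of the genes with a mean of at least 1 FPKM. HFD library 2 was also low in markers of several other cell types. It had the lowest sum of the 6 libraries for pan-leukocyte (88.9 CPM), T and NK cell (11.1 CPM) and dendritic cell genes (11.3 CPM). It was not low in every list, with the highest sum for monocyte and recruited macrophage genes (66.7 CPM). Endothelial cells of the sinusoid are given here in full. The 10 sinusoidal endothelial markers, which include Stab2, Lyve1 and Clec4g, summed to 202, 78.7 and 143 CPM in the HFD libraries and 207, 214 and 138 CPM in the HTG libraries, with Clec4g the most abundant and none at 0. At an unadjusted p under 0.05, 0 of the 10 were higher and 0 lower, against 12.3% and 12.4% of all genes tested in the fit of all 6 libraries, and the part of the endothelial markers in the marker values was not tested.

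Ratios between markers within a library are free of the scaling between libraries and of a shared rise or fall of all markers. The pairs were chosen after the levels had been seen. Of 13 ratios computed, 7 did not overlap between the groups, and each of these had p = 0.1 in a two-sided exact permutation test, the smallest p that 3 libraries against 3 can give (adjusted p = 0.186 over the 13). Since the 13 were picked, their count is not evidence in itself: over all 45 pairs of the 10 markers 17 did not overlap (37.8%), against 29.1% of all pairs of the 17120 genes tested that had counts in every library. C1qa over Lyz2 was 0.300, 0.308 and 0.282 across the HFD libraries, against 0.592, 0.590 and 0.567 across the HTG libraries. This ratio was thus nearly constant within each group, also in the libraries with low markers, and 1.97-fold higher in the HTG group. Clec4f over Adgre1 was 10.4, 7.55 and 8.36 across the HFD libraries, against 21.2, 30.1 and 21.2 across the HTG libraries. Clec4f over Cd5l was 0.388, 0.390 and 0.493 across the HFD libraries, against 0.606, 0.870 and 0.754 across the HTG libraries. Relative to Adgre1 and Cd5l, Clec4f was therefore higher in every HTG library, while its own level overlapped between the groups.

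Lyz2 over Cd5l did not separate the groups, at 0.715 ± 0.054 in the HFD group and 0.771 ± 0.078 in the HTG group (SD, n = 3 per group). The ratio of these most abundant markers lay between 0.679 and 0.861 in the 6 libraries. Marco over Timd4 was 9.74 ± 0.97 in the HFD group and 7.21 ± 3.10 in the HTG group, and it was 9.61 in HFD library 2, where both genes were low. Marco over Clec4f was 0.119 in HFD library 2 and 0.153 in HTG library 1, against 0.403 to 0.667 in the other libraries. Timd4 over Clec4f was 0.0123 in HFD library 2, against 0.0289 to 0.0723 in the other libraries. Marco and Timd4 were therefore low in HFD library 2 relative to Clec4f as well. C1qa over C1qb, the gene of a second chain of the same C1q complex, was 0.852, 0.830 and 0.841 across the HFD libraries, against 1.14, 1.06 and 1.14 across the HTG libraries. C1qb over C1qc, the third chain, overlapped between the groups at 0.995 ± 0.116 and 1.09 ± 0.09 (SD, n = 3 per group).

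**Figure D4:**
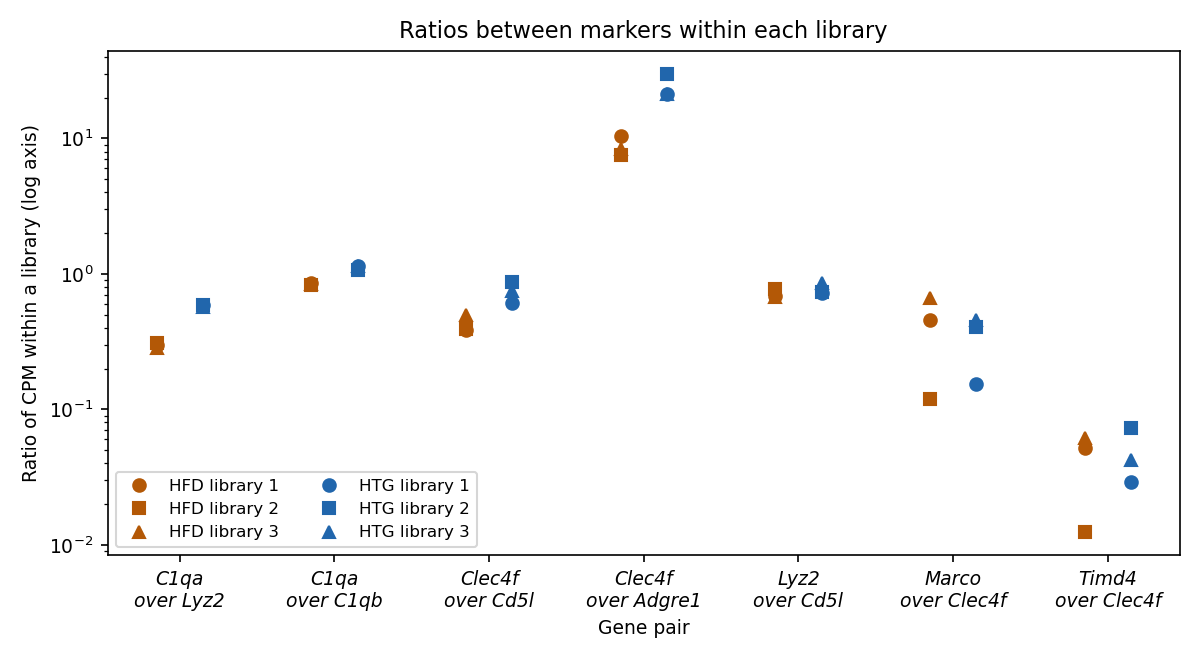
Ratios of CPM between pairs of macrophage genes within each library (log axis), with HFD libraries left and HTG libraries right of each pair. C1qa over Lyz2 lies between 0.282 and 0.308 in the HFD group and between 0.567 and 0.592 in the HTG group, whereas Marco over Clec4f and Timd4 over Clec4f overlap.

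As a share of the summed CPM of the 10 markers, 4 markers did not overlap between the groups. Clec4f made up 13.4% to 15.3% in the HFD libraries and 18.0% to 21.5% in the HTG libraries, and C1qa made up 5.96% to 8.30% and 10.6% to 12.7%. Adgre1 made up 1.29% to 1.83% in the HFD libraries and 0.714% to 0.879% in the HTG libraries, and Cd5l made up 31.1% to 34.7% and 24.7% to 29.7%. Taken over the same sum, 24.6% of all genes tested did not overlap, 1.59% lower and 23% higher in the HTG group. The shares of the 10 markers add up to the whole, so they are not independent of each other.

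In each of the 19 further lists, 0 genes had an adjusted p under 0.05 in edgeR's quasi-likelihood test. Of 15 further Kupffer cell genes, 0 were higher and 1 was lower by an unadjusted p under 0.05, against 12.3% and 12.4% of all genes tested, with a median log2 fold change of -0.30. The gene that passed was Hmox1, the heme-degrading enzyme, at 67.2 ± 5.33 and 46.4 ± 11.3 CPM in the HFD and HTG groups (SD, n = 3 per group; adjusted p = 0.157 in edgeR's quasi-likelihood test). C1qb was the most abundant, at 114 ± 22.4 and 100.5 ± 30.0 CPM (SD, n = 3 per group). Slc16a9, a monocarboxylate transporter family gene, and Il18bp, which encodes a decoy for interleukin 18, had log2 fold changes of -0.48 and -0.34 and did not pass. These shares of all genes tested, 24.7% in all (12.4% lower, 12.3% higher), are the background for the counts of each list that follows. Of 12 transcription factors of the macrophage lineage, 0 passed in either direction, with a median of 0.25. Id3 and Id1, inhibitors of basic helix-loop-helix factors of which Id3 is known for Kupffer cell identity, had log2 fold changes of 1.14 (standard error 0.51) and 1.29 (standard error 0.58), and Maf had 0.48. Spi1, which encodes the myeloid factor PU.1, had 25.4, 16.9 and 18.3 CPM in the HFD libraries and 26.4, 27.5 and 17.7 CPM in the HTG libraries. Spi1 was named after its values were seen.

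Around the CSF1 receptor, 1 of 7 genes was higher and 0 were lower by an unadjusted p under 0.05. It was Csf2ra, a GM-CSF receptor subunit, at 19.8, 10.7 and 13.8 CPM in the HFD libraries and 22.9, 27.6 and 22.5 CPM in the HTG libraries (adjusted p = 0.115 in edgeR's quasi-likelihood test). Tyrobp, the adaptor DAP12 and most abundant of this list, had 24.7 ± 6.23 and 25.4 ± 7.78 CPM (SD, n = 3 per group). Grb2 and Csf2rb had log2 fold changes of -0.34 and -0.28 and did not pass. Among 13 scavenger and efferocytosis receptors, 1 was higher and 1 lower. Stab1, which sinusoidal endothelium also expresses, was 38.8 ± 9.03 in the HFD group and 64.9 ± 13.7 CPM in the HTG group, and the fatty acid translocase gene Cd36 was 57.3 ± 15.6 and 32.3 ± 13.5 CPM (SD, n = 3 per group). Axl, a receptor for dying cells, had a log2 fold change of -0.54 and did not pass, as did Lrp1, the most abundant, with -0.26. Among 10 genes of Fc receptors and myeloid signalling, Fcer1g was higher (16.2 ± 3.81 and 23.9 ± 2.27 CPM; SD, n = 3 per group) and the kinase gene Lyn lower (34.8, 24.0 and 29.8 CPM against 23.8, 21.1 and 21.3 CPM), and Fcgr4 had a log2 fold change of -0.44 and did not pass. Fcer1g, the signalling chain shared by Fc receptors, thus had a fitted change of the opposite sign to that of Adgre1.

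Lysosome genes had the lowest median of the 20 lists. Of 12 such genes that macrophages express strongly, and that hepatocytes and most other cells also express, 10 were lower and 0 higher with an unadjusted p under 0.05, and 0 had an adjusted p under 0.05 in edgeR's quasi-likelihood test, against 7 under 0.1, where 10.8% of all genes tested passed. The median log2 fold change was -0.99, against 0.03 over all genes tested, of which 12.4% were lower at the unadjusted threshold. Laptm5, a lysosomal membrane protein found mainly in leukocytes, had 56.3, 51.3 and 57.2 CPM in the HFD libraries and 28.3, 18.8 and 17.6 CPM in the HTG libraries (log2 fold change -1.35, standard error 0.21, adjusted p = 0.0538 in the same test). Lipa, the lysosomal acid lipase that splits cholesteryl esters and triglycerides, had 115, 175 and 174 CPM in the HFD libraries and 81.5, 41.2 and 36.2 CPM in the HTG libraries. Psap, the precursor of the saposins, had 741, 731 and 629 CPM in the HFD libraries and 401, 193 and 202 CPM in the HTG libraries. Ctsd, which encodes cathepsin D and was the most abundant of the list, had a log2 fold change of -1.06 (standard error 0.29). The 12 genes summed to 5548, 5584 and 5097 CPM in the HFD libraries and 3959, 2196 and 2691 CPM in the HTG libraries, so HFD library 2, low in most macrophage markers, was not low here. Leaving out 1 library at a time gave between 8 and 12 lower genes. The list was chosen with earlier results of these data known, so its counts and its rank among the lists are not independent evidence.

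Of 10 genes of lipid-associated macrophages, a state described in fatty liver and adipose tissue, 2 were lower and 0 higher with an unadjusted p under 0.05, against 24.7% of all genes tested (12.4% lower). Gpnmb, a glycoprotein of lipid-laden macrophages, had 132, 105 and 108 CPM in the HFD libraries and 53.1, 23.0 and 4.27 CPM in the HTG libraries (log2 fold change -2.10, standard error 0.70, adjusted p = 0.118 in edgeR's quasi-likelihood test). Its HTG values ran 12-fold apart, yet all lay below the HFD values. Cd9 was 36.3 ± 4.25 and 28.2 ± 1.24 CPM in the HFD and HTG groups (SD, n = 3 per group). Trem2, the lipid-sensing receptor of these cells, overlapped between the groups, at 24.5, 15.3 and 15.1 CPM in the HFD libraries and 21.5, 14.6 and 7.51 CPM in the HTG libraries. Trem2 was named after its values were seen. Fabp5 did not pass and had 12.2, 4.06 and 53.7 CPM in the HFD libraries and 22.8, 31.8 and 306 CPM in the HTG libraries, with HTG library 3 far above the rest (log2 fold change 2.37, standard error 1.16). Spp1, the most abundant of the list, did not pass either, with -0.19.

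Of 11 genes of monocytes and recruited macrophages, 1 was higher and 1 lower by an unadjusted p under 0.05, and the list summed to only 45.1, 66.7 and 64.0 CPM in the HFD libraries and 35.8, 44.0 and 65.6 CPM in the HTG libraries. Lst1 was higher (0.810 ± 0.177 and 2.00 ± 0.76 CPM, adjusted p = 0.0996) and Chil3 lower (20.2 ± 7.58 and 8.07 ± 5.42 CPM, adjusted p = 0.134; SD, n = 3 per group, edgeR's quasi-likelihood test). Plac8, the most abundant of them, had a log2 fold change of 0.37 and did not pass. Ccr2, the receptor that draws monocytes into inflamed liver, was between 2.58 and 8.58 CPM in all 6 libraries. Ccr2 was named after its values were seen. Of 20 cytokines, chemokines and related genes, 18 were tested, 1 was higher and 2 were lower. Cxcl1, which attracts neutrophils, had 89.3, 25.6 and 39.6 CPM in the HFD libraries and 134, 296 and 716 CPM in the HTG libraries (log2 fold change 2.89, standard error 0.67, adjusted p = 0.0616 in the same test). Ccl3 was 2.31 ± 0.37 and 0.916 ± 0.345 CPM and Ccl6 was 36.1 ± 17.6 and 19.8 ± 3.51 CPM (SD, n = 3 per group).

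**Figure D5:**
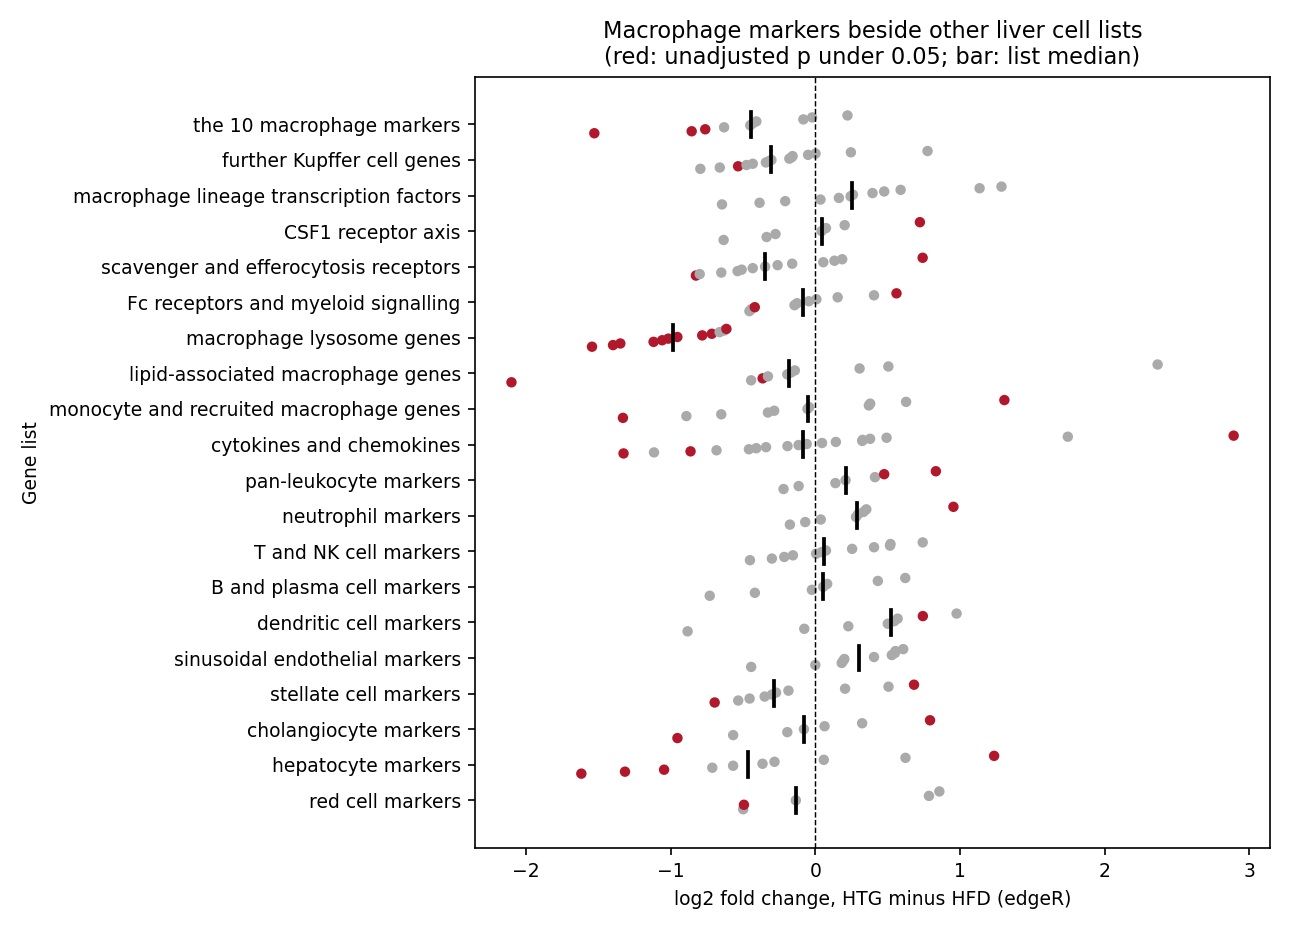
Log2 fold change of each gene tested, HTG minus HFD, in the 10 macrophage markers and 19 further lists (rows), with genes at an unadjusted p under 0.05 in red and list medians as bars. The lysosome genes lie furthest to the left as a list (median -0.99), and the macrophage markers have a median of -0.44.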

How the data were processed

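Poly(A) liver RNA of 6 libraries, 3 per group, was sequenced in pairs with strand marking. The submitters' processing notes name HISAT2, StringTie, SAMtools and the rat build mRatBN7.2, yet the gene rows are mouse Ensembl genes, and the build of the coordinates is not given in the sources used here. For each gene the authors deposited, in each library, an estimated count as a whole number and an FPKM value scaled by transcript length and library. Low counts favoured multiples of 4: values of 4, 8 and 12 occurred 6450, 3333 and 2041 times, against 1757, 1170 and 921 times for 5, 9 and 13. A weaker step of 2 was present as well, since values of 2, 3, 6 and 7 occurred 4229, 2549, 2171 and 1521 times and 1 occurred 5104 times. Reading fragments as counts divided by 4 (12662194 to 22640869 in a library) is therefore an approximation. A gene with no count was given a limit of 3 fragments, or 12 counts, which covers counting error only. No rat sequence table was used.

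The counts were scaled by TMM and tested over 18455 genes with edgeR 4.0.16 in R 4.3.3 (filterByExpr, glmQLFit, glmQLFTest, group as the only term, Benjamini-Hochberg adjustment). Standard errors were the log2 fold change divided by the root of F. DESeq2 1.42.0, limma 3.58.1 on log2(FPKM + 0.1), other scalings, filters, a replicate block and each library left out were alternatives. The members and lists were chosen with earlier results of these data known. All markers were named. Of each other list, the text names up to 3 genes with the smallest unadjusted p and a mean of at least 50 counts, and the most abundant by FPKM. A gene that this rule names is not reported here. Genes outside this rule are marked in the text, except Lyz1, C1qc, Hmgxb3 and Lyve1, which were named for identity, overlap or as a ratio partner. Every value column belonged to 1 of the 6 libraries.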

Additional observations from a re-analysis of the deposited data

How the results depend on the processing

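The number of genes with an adjusted p under 0.05 was 2 in edgeR's fit and depended on the setting: 2089 with DESeq2, 162 with no filter, 684 with at least 10 counts in every library, 822 with counts divided by 4, 878 and 884 with limma on log2(FPKM + 0.1) and log2(FPKM + 1), 0 with limma and no filter, 0 with the replicate block, 7 without HFD library 2 and HTG library 3, and from 0 to 653 without 1 library. The number of macrophage markers under that threshold, 0 in edgeR's fit, was 3 with DESeq2, 1 with no filter, with the minimum of 10 counts, with both filtered limma fits and with counts divided by 4, and from 0 to 1 without 1 library. It was 1 at an adjusted p under 0.1 and 3 at an unadjusted p under 0.05, and the latter count ran from 1 to 5 without 1 library. Non-overlapping markers were 3 in CPM, against 32.1% of the genes tested, and 1 with upper-quartile scaling, against 32.1%. They were 1 in FPKM, against 38.3%, and 8 without HFD library 2 and HTG library 3, against 51.9%. Without 1 library they ran from 2 (HTG library 3, against 39.8%) to 8 (HFD library 2, against 41.2%). The causes were not tested. The median of the markers (-0.72 to -0.21) and the log2 ratio of their sums (-0.76 to -0.33) kept their sign without 1 library. The change of Timd4 had the opposite sign with upper-quartile scaling (0.0079), the replicate block (0.051), limma on log2(FPKM + 0.1) with and without the filter (0.22), limma on log2(FPKM + 1) (0.071) and counts divided by 4 (0.0030), and without 1 library it ran from -0.71 to 0.46. The changes of Clec4f (-0.31 to 0.14) and C1qa (-0.075 to 0.42) also changed sign without 1 library. The replicate block added the library number as a term, in case equal numbers pair libraries. Same-numbered libraries deviated with r of -0.13, -0.11 and 0.19 across genes, and only number 3 correlated best with its own number. The deviations of 3 libraries from their group mean depend on each other, so these values cannot show whether the libraries are paired. The labels give a shared number only. With the block, 3 markers had an unadjusted p under 0.05, against 21% of the genes tested. Without it the count was also 3, against 24.7%. The fit without HFD library 2 and HTG library 3 was chosen after seeing the data. Depth did not limit detection, since the lowest marker value was 106 counts.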

Other observations

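Lists of other liver and blood cells were measured beside the macrophage markers. Of 7 pan-leukocyte genes, 2 were higher and 0 lower by an unadjusted p under 0.05 in edgeR's quasi-likelihood test, against 24.7% of all genes tested (12.3% higher), which is the background for each list here. Arhgap45 was 19.8 ± 3.89 in the HFD group and 35.3 ± 10.5 CPM in the HTG group, Coro1a was 14.4 ± 0.24 and 20.0 ± 2.53 CPM, and Cd52, the most abundant, was 10.5 ± 2.82 and 13.9 ± 1.96 CPM (SD, n = 3 per group). Of 8 neutrophil genes, Csf3r alone passed (10.7 ± 4.75 and 20.7 ± 5.92 CPM; SD, n = 3 per group). Mpo, Cxcr2 and the most abundant S100a9 had log2 fold changes of 0.28, 0.35 and -0.07. None of 12 T and NK cell genes or of the 7 tested among 8 B and plasma cell genes passed, 0 against 24.7% of all genes tested. Cd3g, Cd2, Cd4 and Nkg7 had log2 fold changes of 0.52, 0.41, 0.52 and 0.0049, and Cd79b, Ighm and Jchain had -0.73, 0.05 and -0.02. Of 8 dendritic cell genes, Clec9a, a receptor for dead cells, passed (5.93 ± 2.13 and 9.91 ± 2.10 CPM; SD, n = 3 per group), and Zbtb46 and Siglech, at 0.57 and 0.98, did not.

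Of the sinusoidal endothelial genes, Stab2, Gpr182 and Clec4g, those with the smallest unadjusted p, had log2 fold changes of 0.53, 0.55 and 0.61, none passing. Of 10 stellate cell genes, Reln was lower (25.6 ± 3.02 and 15.8 ± 3.45 CPM) and Des, the desmin gene, higher (4.02 ± 0.97 and 6.46 ± 0.42 CPM; SD, n = 3 per group), with Lrat and the most abundant Ecm1 at -0.45 and 0.21. Of 7 cholangiocyte genes, Sox9 was higher (3.74 ± 0.65 and 6.49 ± 0.43 CPM) and Epcam lower (2.87 ± 1.03 and 1.48 ± 0.36 CPM; SD, n = 3 per group). Of 10 hepatocyte genes, 1 was higher and 3 were lower, among them Apoa1 (1.24), Cps1 (-1.62) and Apob (-1.05) on the log2 scale. Of 5 red cell genes, Alas2, the erythroid heme synthesis enzyme, was lower (57.3 ± 4.76 and 40.7 ± 6.45 CPM; SD, n = 3 per group), and Hba-a1, Hba-a2 and Hbb-bs had 0.86, 0.78 and -0.50.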
